A study of Rattus norvegicus with 8 samples.

Results

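The MYC family and its antagonists were followed by RNA sequencing along a culture series that leads rat embryonic stem cells to germ cell-like cells. Its 8 members here were Myc, Mycn, Mycl, Mxd1, Mxd3, Mxd4, Mxi1 and Mnt, chosen by gene symbol and not by level. All 8 were found among the 22228 named genes of the expression table, and all 8 passed the filter on low values. A total of 8 libraries in 4 groups of 2 came from cells of the strain Crlj:WI. Embryonic stem cells (ESC) were kept on mouse embryonic fibroblast feeders with PD0325901 (1 µM), a MEK inhibitor, CHIR99021 (3 µM), a GSK3 inhibitor, and rat LIF (1000 U/ml). Epiblast-like cells (EpiLC) were taken after 60 h as floating aggregates given activin A (20 ng/ml), bFGF (12 ng/ml) and KSR, a serum replacement, at 1%. Primordial germ cell-like cells (PGCLC_d3) were EpiLC exposed for 3 days to BMP4 (500 ng/ml), LIF (1000 U/ml), SCF (100 ng/ml) and EGF (50 ng/ml) and then sorted for a Nanos3-T2A-tdTomato reporter. For PGCLC_d3ag3, 5000 such sorted cells were aggregated with 50000 somatic cells of female gonads at E15.5, cleared of c-KIT-positive germ cells, kept for 3 days with KSR at 5%, and sorted again by the reporter. The labels give the genotype of all 4 groups as wild type although both sorted groups carried this reporter, and they do not say whether the pair of replicates came from separate cultures. P-values therefore measure the spread between these libraries, which may be technical.

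MYC, MYCN and MYCL are related transcription factors that bind the DNA sequence CACGTG, the E-box, as dimers with MAX and raise the expression of genes for ribosome synthesis, metabolism and cell division. MXD1, MXI1, MXD3, MXD4 and MNT also dimerise with MAX, but recruit the SIN3 and histone deacetylase corepressors to the same sequence, so that both sides compete for MAX and for sites. In mouse embryonic stem cells Myc supports self-renewal downstream of LIF, and Mycn can stand in for it.

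Values are TPM, transcript levels scaled to the library and corrected for gene length, calculated back from the deposited log2(TPM+1), so that levels of different genes can be set side by side. Changes are differences of log2(TPM+1), which understate the fold change of genes of a few TPM. Changes were tested with limma, p-values were adjusted by Benjamini and Hochberg over the 13571 tested genes of each comparison, and an adjusted p under 0.05 was taken as a call. Relative to the first ESC library, sequencing depth estimated from the steps between the lowest values ran from 1 to 1.5 in the first 3 groups and was 2.17 and 2.38 in PGCLC_d3ag3. No total read count per library was used. In bulk RNA of this kind, fewer cells that express a gene and less RNA of it per cell cannot be told apart.

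Otx2 was at 74.6 and 73.9 TPM in EpiLC and under 1 TPM in ESC, Prdm1 was at 67.6 and 65.4 TPM in PGCLC_d3, and Dazl at 763 and 806 TPM in PGCLC_d3ag3. Against the labels, Fgf5, a common epiblast marker, was at 0.0747 and 0 TPM in EpiLC, and the germ cell marker Ddx4 at 162 and 134 TPM. Ddx4 was at 1.30 and 1.28 TPM in PGCLC_d3 and at 204 and 201 TPM in PGCLC_d3ag3. Dazl was likewise low in PGCLC_d3, at 0.390 and 0.347 TPM. Of 10 fibroblast markers, the summed level was 27.9 to 34.7 TPM in ESC, 55.8 to 101 TPM in EpiLC, 11.5 to 13.3 TPM in PGCLC_d3 and 18.3 to 20.7 TPM in PGCLC_d3ag3. Of 12 gonadal somatic markers, 6 were under 1 TPM in both PGCLC_d3ag3 libraries, against 8 in each other group. Foxl2 was at 0.289 and 0.461 TPM, and at 0 and 0.0688 TPM in PGCLC_d3. Of the 8 tested, 4 were higher and 2 lower in PGCLC_d3ag3 than in PGCLC_d3. Amhr2 went from 0.430 and 0.398 TPM to 3.74 and 4.26 TPM, and Star from 3.15 and 3.12 TPM to 0.551 and 0.741 TPM. The sum of all 12 in PGCLC_d3ag3, 75.2 to 76.3 TPM, was mostly Krt18. Hbb, a blood marker, was at 4.81 and 11.3 TPM in PGCLC_d3ag3 and at 0 in the other 3 groups. The median change of all tested genes was 0.04 for EpiLC against ESC, 0.21 for PGCLC_d3 against EpiLC, -0.18 for PGCLC_d3ag3 against PGCLC_d3 and 0.25 for PGCLC_d3 against ESC. Changes of members in PGCLC_d3 are to be read against that shift, which a rescaling of libraries by the median of gene ratios brought to between -0.02 and 0.02.

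Mycn was the most abundant member in all 8 libraries. It was at 119 and 113 TPM in ESC, 166 and 161 TPM in EpiLC, 159 and 160.0 TPM in PGCLC_d3, and 114 and 134 TPM in PGCLC_d3ag3. Between 86.9% and 90.7% of tested genes had a lower mean level than Mycn, depending on the group. The 4 libraries of EpiLC and PGCLC_d3 lay above the other 4, while ESC and PGCLC_d3ag3 overlapped. Mycn rose from ESC to EpiLC by 0.49 (SE 0.0730, limma adjusted p = 0.000198), 1.41-fold in TPM. EpiLC and PGCLC_d3 differed by -0.04 (adjusted p = 0.671, 95% interval -0.20 to 0.13). After median-of-ratios rescaling PGCLC_d3 lay lower, by -0.30 (adjusted p = 0.00424), whereas after quantile normalization the difference was not called. From PGCLC_d3 to PGCLC_d3ag3 Mycn fell by 0.37 (adjusted p = 0.00135), a call that was lost after that rescaling (-0.15, adjusted p = 0.0922). Against ESC, PGCLC_d3 was higher by 0.46 (adjusted p = 0.000243), which was likewise lost (0.14, adjusted p = 0.102). Both of these calls held after quantile normalization. PGCLC_d3ag3 was lower than EpiLC by -0.40 (adjusted p = 0.000581) and differed from ESC by 0.09 (adjusted p = 0.279), a difference that passed the test without PGCLC_d3ag3 replicate 1 (0.20, adjusted p = 0.0131).

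Myc, the founding member of the family, moved far more than Mycn. Its level was 15.2 and 18.0 TPM in ESC, 58.4 and 59.4 TPM in EpiLC, 23.5 and 26.2 TPM in PGCLC_d3, and 2.00 and 2.90 TPM in PGCLC_d3ag3. No group overlapped another: EpiLC was highest, then PGCLC_d3, ESC and PGCLC_d3ag3. Myc rose from ESC to EpiLC by 1.77 (SE 0.138, limma adjusted p = 1.93e-06), 3.55-fold in TPM. It then fell by 1.21 to PGCLC_d3 (adjusted p = 2.3e-05), 2.37-fold, and by 2.92 to PGCLC_d3ag3 (adjusted p = 1.4e-07), 10.1-fold. From the highest to the lowest group, EpiLC to PGCLC_d3ag3, the difference was -4.13 (SE 0.138, adjusted p = 4.51e-09), 24.0-fold in TPM. PGCLC_d3ag3 was also below ESC, by -2.36 (adjusted p = 1.59e-07), 6.77-fold. PGCLC_d3 exceeded ESC by 0.56 (adjusted p = 0.004), and this call was lost after quantile normalization (0.27, adjusted p = 0.084) and after median-of-ratios rescaling (0.26, adjusted p = 0.0894). The other 5 Myc calls held under all 19 alternatives. Summed fibroblast markers were 55.8 TPM in EpiLC replicate 1 and 101 TPM in replicate 2, where Myc was at 58.4 and 59.4 TPM. The part of fibroblasts in the Myc change was not tested.

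Mycl had its highest level in the first sorted group. It was at 2.40 and 2.30 TPM in ESC, 4.74 and 5.37 TPM in EpiLC, 59.0 and 56.8 TPM in PGCLC_d3, and 26.5 and 27.4 TPM in PGCLC_d3ag3. The groups did not overlap, and the order was PGCLC_d3, PGCLC_d3ag3, EpiLC, ESC. Mycl rose from ESC to EpiLC by 0.85 (SE 0.101, limma adjusted p = 4.12e-05), 2.15-fold. From EpiLC to PGCLC_d3 it rose by 3.29 (adjusted p = 3.07e-09), 11.5-fold, the largest increase of a member between successive groups. It then fell by 1.08 to PGCLC_d3ag3 (adjusted p = 9.58e-06), 2.15-fold, and was still above ESC by 3.06 (adjusted p = 3.56e-09) and above EpiLC by 2.21 (adjusted p = 3.21e-08). PGCLC_d3 exceeded ESC by 4.14 (adjusted p = 5.08e-10), 24.7-fold. All 6 Mycl calls held under the 19 alternatives. Of 6 trophoblast and amnion markers, the summed level in PGCLC_d3 was 108 to 113 TPM, against 308 to 344 TPM in ESC (mostly Krt19), where Mycl was lowest, 4.69 to 6.11 TPM in EpiLC and 11.5 to 13.1 TPM in PGCLC_d3ag3. In PGCLC_d3, Hand1 made up 53.6 and 53.4 TPM of it and Dlx3 25.6 and 25.9 TPM. Hand1, Dlx3 and Gata3 were highest in PGCLC_d3, and Krt19, Tfap2a and Isl1 were highest in ESC. Their part in the Mycl change was not tested.

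**Figure D1:**
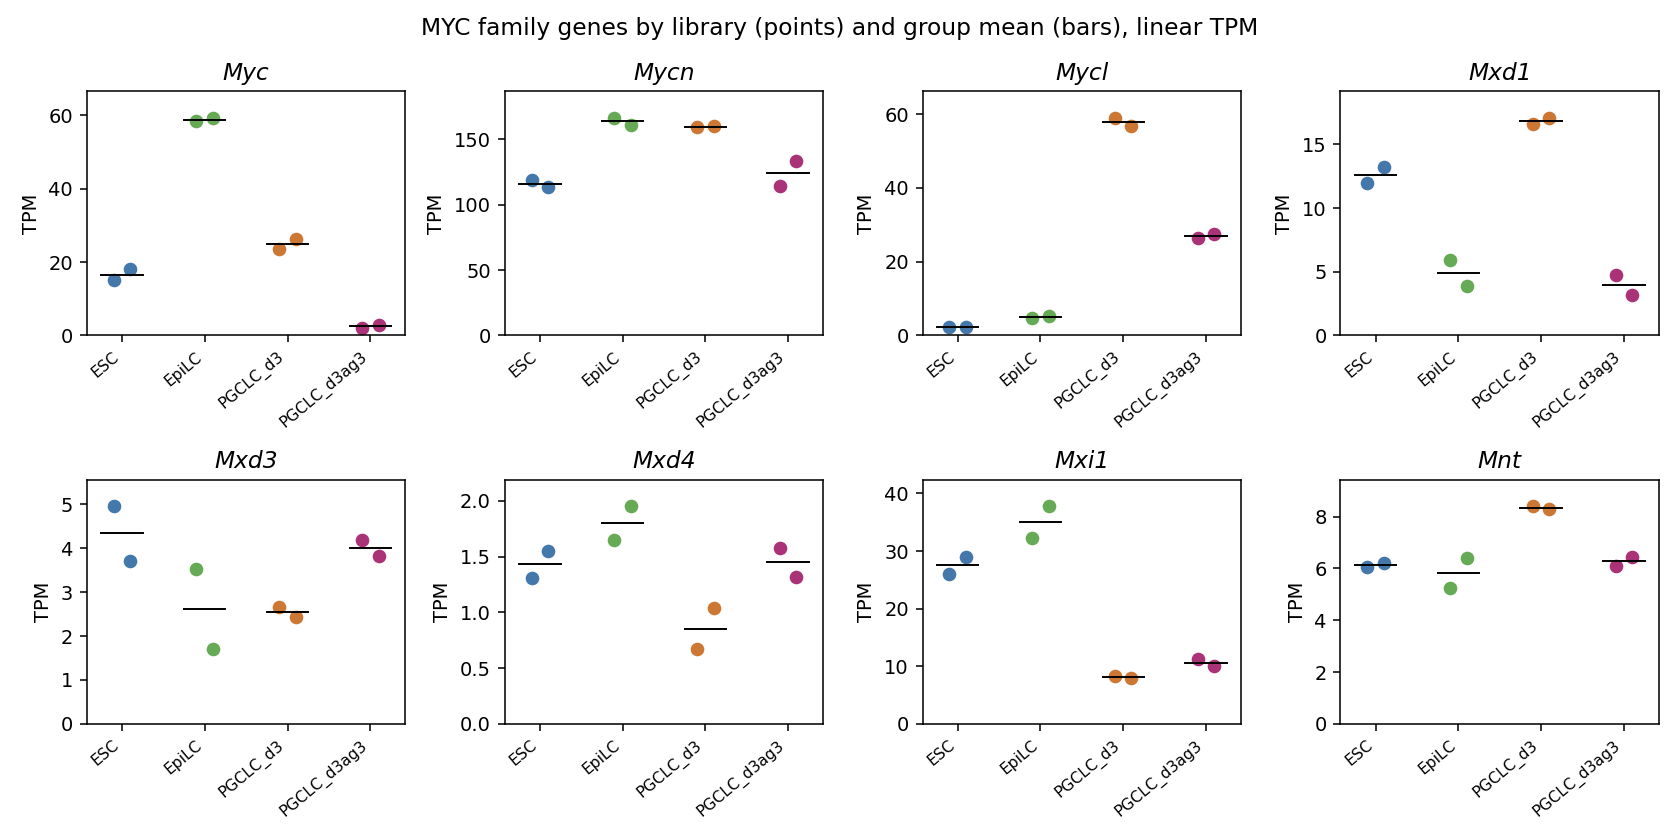
Level of each of the 8 members in TPM (vertical axis, a separate linear scale per gene starting at 0) in the 4 groups, with 1 point per library and a bar at the group mean. Myc drops from 58.4 and 59.4 TPM in EpiLC to 2.00 and 2.90 TPM in PGCLC_d3ag3, Mycl peaks at 59.0 and 56.8 TPM in PGCLC_d3, and Mycn stays between 113 and 166 TPM.

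Added together, the 3 MYC genes reached 135 ± 1.80 TPM in ESC, 228 ± 2.93 TPM in EpiLC, 242 ± 1.05 TPM in PGCLC_d3 and 153 ± 14.9 TPM in PGCLC_d3ag3 (mean ± SD, n = 2). Mycn made up most of this sum in every library. Its share was 86.0% ± 1.61 in ESC, 71.9% ± 0.882 in EpiLC, 65.8% ± 0.00750 in PGCLC_d3 and 80.8% ± 1.00 in PGCLC_d3ag3 (SD, n = 2). The gene next to it in level changed along the series. Myc contributed 12.3% ± 1.64 in ESC, 25.9% ± 0.656 in EpiLC, 10.3% ± 0.740 in PGCLC_d3 and 1.59% ± 0.262 in PGCLC_d3ag3, whereas Mycl contributed 1.74% ± 0.0303, 2.22% ± 0.225, 23.9% ± 0.747 and 17.6% ± 1.27 (SD, n = 2). The ratio of Mycn to Myc, which no scaling of a library can alter, was 7.05 ± 1.07 in ESC, 2.78 ± 0.104 in EpiLC, 6.43 ± 0.463 in PGCLC_d3 and 51.6 ± 7.87 in PGCLC_d3ag3 (SD, n = 2). These sums and ratios are descriptions and were not tested.

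Among the antagonists, Mxi1 was the most abundant in ESC and EpiLC. It was at 26.1 and 28.9 TPM in ESC, 32.2 and 37.8 TPM in EpiLC, 8.33 and 7.93 TPM in PGCLC_d3, and 11.2 and 10.0 TPM in PGCLC_d3ag3. The 4 libraries of the sorted groups lay below the 4 of ESC and EpiLC. Mxi1 fell from EpiLC to PGCLC_d3 by 1.98 (SE 0.110, limma adjusted p = 1.52e-07), 4.31-fold in TPM. Both sorted groups were below ESC, PGCLC_d3 by -1.64 (adjusted p = 4.28e-07) and PGCLC_d3ag3 by -1.29 (adjusted p = 2.45e-06), and PGCLC_d3ag3 was below EpiLC by -1.63 (adjusted p = 4.64e-07). These 4 falls held under all 19 alternatives. The 2 smaller differences lost their calls when 1 library was left out. Mxi1 was higher in EpiLC than in ESC by 0.34 (adjusted p = 0.0216), which was lost without ESC replicate 1 (0.26, adjusted p = 0.123) or without EpiLC replicate 2 (0.22, adjusted p = 0.175). It was higher in PGCLC_d3ag3 than in PGCLC_d3 by 0.35 (adjusted p = 0.0176), which was lost without PGCLC_d3 replicate 2 (0.32, adjusted p = 0.0919) or without PGCLC_d3ag3 replicate 1 (0.27, adjusted p = 0.0861).

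Mxd1, an antagonist induced when many cell types leave the cell cycle, alternated between groups. It was at 12.0 and 13.2 TPM in ESC, 5.89 and 3.91 TPM in EpiLC, 16.6 and 17.1 TPM in PGCLC_d3, and 4.76 and 3.20 TPM in PGCLC_d3ag3. PGCLC_d3 was highest and ESC next, and the EpiLC and PGCLC_d3ag3 libraries overlapped. Mxd1 fell from ESC to EpiLC by 1.22 (SE 0.188, limma adjusted p = 0.000253), 2.57-fold. It rose by 1.62 to PGCLC_d3 (adjusted p = 2.78e-05), 3.44-fold, and fell by 1.86 to PGCLC_d3ag3 (adjusted p = 1.57e-05), 4.24-fold. PGCLC_d3ag3 was also below ESC by -1.47 (adjusted p = 5.06e-05). All 4 calls held under the 19 alternatives. PGCLC_d3 and ESC differed by 0.39 (adjusted p = 0.0806), and this difference passed the test on a log2(TPM+5) scale (0.31, adjusted p = 0.0308), without PGCLC_d3ag3 replicate 2 (0.39, adjusted p = 0.0495) and in a fit of these groups alone (adjusted p = 0.00844). The other 16 alternatives did not call the difference between PGCLC_d3 and ESC, and over all 19 its size ran from 0.08 to 0.46. PGCLC_d3ag3 and EpiLC differed by -0.24 (adjusted p = 0.26, 95% interval -0.67 to 0.18). The summed trophoblast and amnion markers given above were higher in PGCLC_d3 than in EpiLC and PGCLC_d3ag3 but highest in ESC, mostly from Krt19. Of these markers, Hand1, Dlx3 and Gata3 were highest in PGCLC_d3, as Mxd1 was, and Krt19, Tfap2a and Isl1 in ESC. The part of such cells in the Mxd1 change was not tested.

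Mnt, a broadly expressed antagonist, varied little. It was at 6.06 and 6.21 TPM in ESC, 5.24 and 6.38 TPM in EpiLC, 8.40 and 8.29 TPM in PGCLC_d3, and 6.09 and 6.45 TPM in PGCLC_d3ag3. The PGCLC_d3 libraries were above the other 6, which overlapped. PGCLC_d3 was higher than EpiLC by 0.46 (limma adjusted p = 0.00673) and than ESC by 0.39 (adjusted p = 0.0154), and PGCLC_d3ag3 was lower than PGCLC_d3 by -0.36 (adjusted p = 0.0242). None of these calls held after quantile normalization (0.11, 0.0067 and -0.0020 in the same order) or median-of-ratios rescaling. After median-of-ratios rescaling the 3 differences were 0.23 (adjusted p = 0.113), 0.11 (adjusted p = 0.401) and -0.17 (adjusted p = 0.22). Single libraries also ended them: the first was lost without EpiLC replicate 1 (0.34, adjusted p = 0.0604). The difference from ESC was lost without ESC replicate 1 (0.37, adjusted p = 0.0545), PGCLC_d3 replicate 1 (0.38, adjusted p = 0.0778) or PGCLC_d3 replicate 2 (0.40, adjusted p = 0.0676). The third was lost without PGCLC_d3 replicate 1 (-0.35, adjusted p = 0.109), PGCLC_d3 replicate 2 (-0.37, adjusted p = 0.0944) or PGCLC_d3ag3 replicate 1 (-0.33, adjusted p = 0.0782).

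Mxd3 and Mxd4 were the least abundant members on average and stayed under 5 TPM in every library. Mxd3, which in other tissues is found in dividing cells, was at 4.95 and 3.71 TPM in ESC, 3.53 and 1.69 TPM in EpiLC, 2.66 and 2.44 TPM in PGCLC_d3, and 4.18 and 3.81 TPM in PGCLC_d3ag3. Its EpiLC libraries spanned those of PGCLC_d3, and its ESC libraries those of PGCLC_d3ag3. Mxd3 was lower in EpiLC than in ESC by -0.60 (SE 0.224, limma adjusted p = 0.0374) and lower in PGCLC_d3 than in ESC by -0.58 (adjusted p = 0.0379). Both calls were lost without ESC replicate 1 (-0.43, adjusted p = 0.22, and -0.41, adjusted p = 0.224). The first was also lost without EpiLC replicate 2 (-0.22, adjusted p = 0.331), and the second without PGCLC_d3 replicate 1 (-0.62, adjusted p = 0.0831) or PGCLC_d3 replicate 2 (-0.53, adjusted p = 0.131). Leaving out a library of a group not compared moved their adjusted p to between 0.0504 and 0.0514 where it ended a call. Both calls were lost as well with no filter on low values (adjusted p = 0.087 and 0.0863), with a pseudocount of 0.1 (adjusted p = 0.0511 and 0.058) and with eBayes without trend (adjusted p = 0.0532 and 0.0527), and the first in a fit of its groups alone (adjusted p = 0.093). PGCLC_d3ag3 differed from PGCLC_d3 by 0.49 (adjusted p = 0.0738) and from EpiLC by 0.51 (adjusted p = 0.0587). The first of these passed without either EpiLC library (0.49, adjusted p = 0.0198 each), in a fit of its groups alone (adjusted p = 0.0157), after quantile normalization (0.82, adjusted p = 0.0138) and after median-of-ratios rescaling (0.64, adjusted p = 0.0308), and the second without EpiLC replicate 1 (0.89, adjusted p = 0.00294).

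Mxd4, an antagonist linked to differentiation, was at 1.31 and 1.55 TPM in ESC, 1.65 and 1.95 TPM in EpiLC, 0.670 and 1.04 TPM in PGCLC_d3, and 1.58 and 1.31 TPM in PGCLC_d3ag3. The PGCLC_d3 libraries were the lowest. Mxd4 fell from EpiLC to PGCLC_d3 by 0.60 (SE 0.144, limma adjusted p = 0.00362), 2.11-fold in TPM. It was higher in PGCLC_d3ag3 than in PGCLC_d3 by 0.41 (adjusted p = 0.0288), a call lost without PGCLC_d3 replicate 1 (0.26, adjusted p = 0.219) or PGCLC_d3ag3 replicate 1 (0.33, adjusted p = 0.115) and in a fit of these groups alone (adjusted p = 0.0539). It was lower in PGCLC_d3 than in ESC by -0.40 (adjusted p = 0.029), a call lost without ESC replicate 2 (-0.33, adjusted p = 0.139) or PGCLC_d3 replicate 1 (-0.25, adjusted p = 0.222).

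The 5 antagonists summed to 52.0 ± 2.29 TPM in ESC, 50.2 ± 2.25 TPM in EpiLC, 36.7 ± 0.0729 TPM in PGCLC_d3 and 26.3 ± 2.13 TPM in PGCLC_d3ag3 (mean ± SD, n = 2). Their make-up differed between the groups. Mxi1 held 52.8% ± 1.59 of the sum in ESC, 69.7% ± 4.70 in EpiLC, 22.1% ± 0.823 in PGCLC_d3 and 40.4% ± 0.0904 in PGCLC_d3ag3. Mxd1 held 24.2% ± 0.575, 9.85% ± 3.23, 45.9% ± 0.814 and 15.0% ± 2.99 in the same order (SD, n = 2). The share of Mnt was 11.8% ± 0.311, 11.6% ± 1.09, 22.7% ± 0.257 and 23.9% ± 2.91. That of Mxd3 was 8.38% ± 2.06, 5.28% ± 2.83, 6.94% ± 0.440 and 15.2% ± 0.254 (SD, n = 2). The ratio of the MYC sum to the antagonist sum was 2.60 ± 0.149 in ESC, 4.54 ± 0.263 in EpiLC, 6.59 ± 0.0154 in PGCLC_d3 and 5.87 ± 1.04 in PGCLC_d3ag3 (SD, n = 2). The PGCLC_d3ag3 libraries lay apart at 5.13 and 6.60, so that their order against PGCLC_d3 is not resolved. A ratio of transcript levels says nothing of protein levels, which were not measured.

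**Figure D2:**
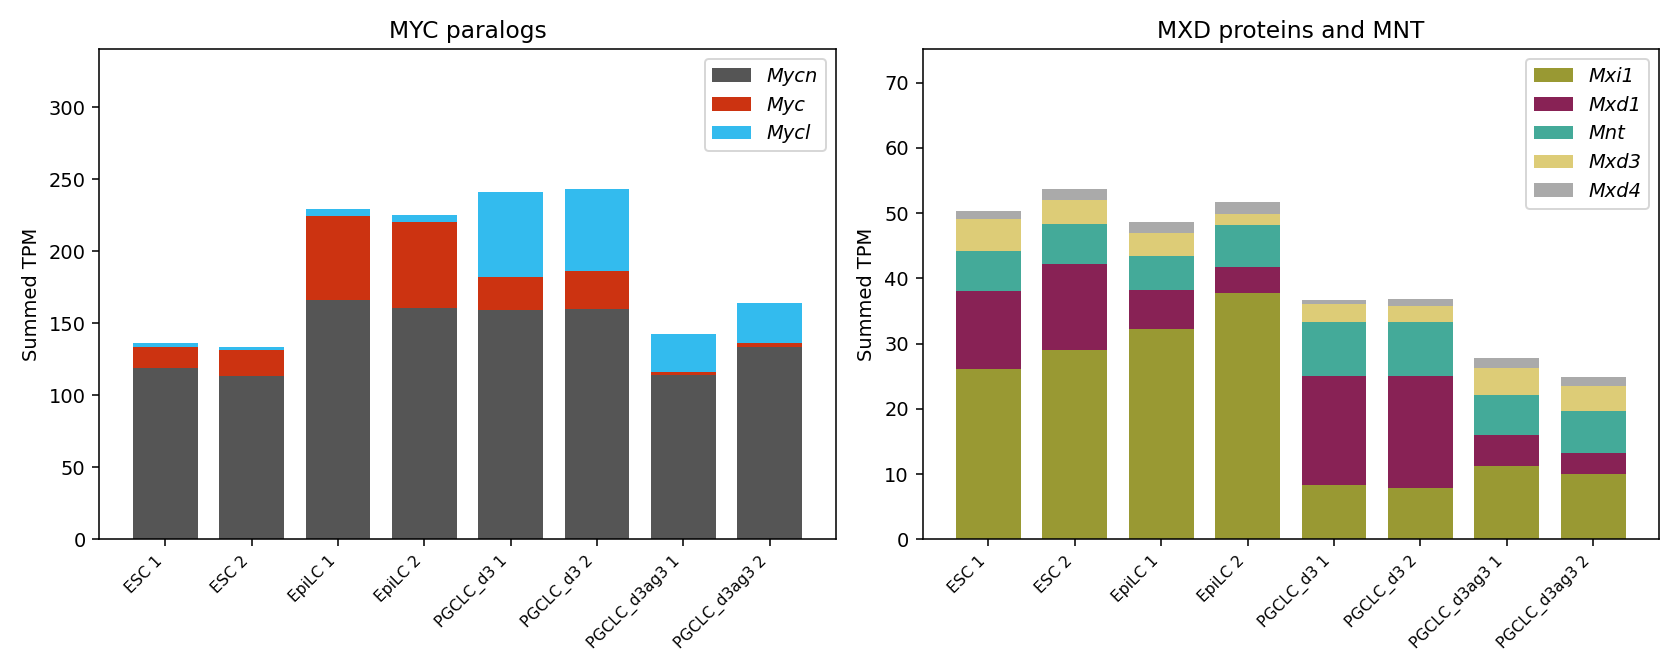
Stacked bars of the summed TPM (linear axis from 0) in each of the 8 libraries, for Mycn, Myc and Mycl in the left panel and for the 5 antagonists in the right panel, coloured by gene. Mycn fills most of every left bar, Mycl takes 24.4% and 23.4% in PGCLC_d3, and the antagonist sum goes from 50.4 and 53.6 TPM in ESC to 27.8 and 24.8 TPM in PGCLC_d3ag3.

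Most tested genes differed between any pair of groups, and the number of members that passed the test is set beside their share. From ESC to EpiLC 6 members passed, with 4 higher and 2 lower, where 67.3% of all tested genes were called (35.4% higher and 31.8% lower). From EpiLC to PGCLC_d3 6 passed, 3 in each direction, against 74.9% of all tested genes (47.3% higher and 27.6% lower). From PGCLC_d3 to PGCLC_d3ag3 7 passed, with 2 higher and 5 lower, against 70.4% (25.7% higher and 44.8% lower). Between PGCLC_d3 and ESC 7 passed, with 4 higher and 3 lower, against 77% (49.6% higher and 27.4% lower), and under median-of-ratios rescaling 4 passed. Between PGCLC_d3ag3 and ESC 4 passed, with 1 higher and 3 lower, against 77.3% (42.5% higher and 34.8% lower). Between PGCLC_d3ag3 and EpiLC 4 passed, again 1 higher and 3 lower, against 77.7% (41% higher and 36.7% lower). The count from PGCLC_d3 to PGCLC_d3ag3 was 4 without PGCLC_d3ag3 replicate 1, and that between PGCLC_d3 and ESC was 4 without PGCLC_d3 replicate 1. The count between EpiLC and ESC was 4 without ESC replicate 1 or without EpiLC replicate 2. Comparisons with a group in common share its libraries and are not independent of each other.

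**Figure D3:**
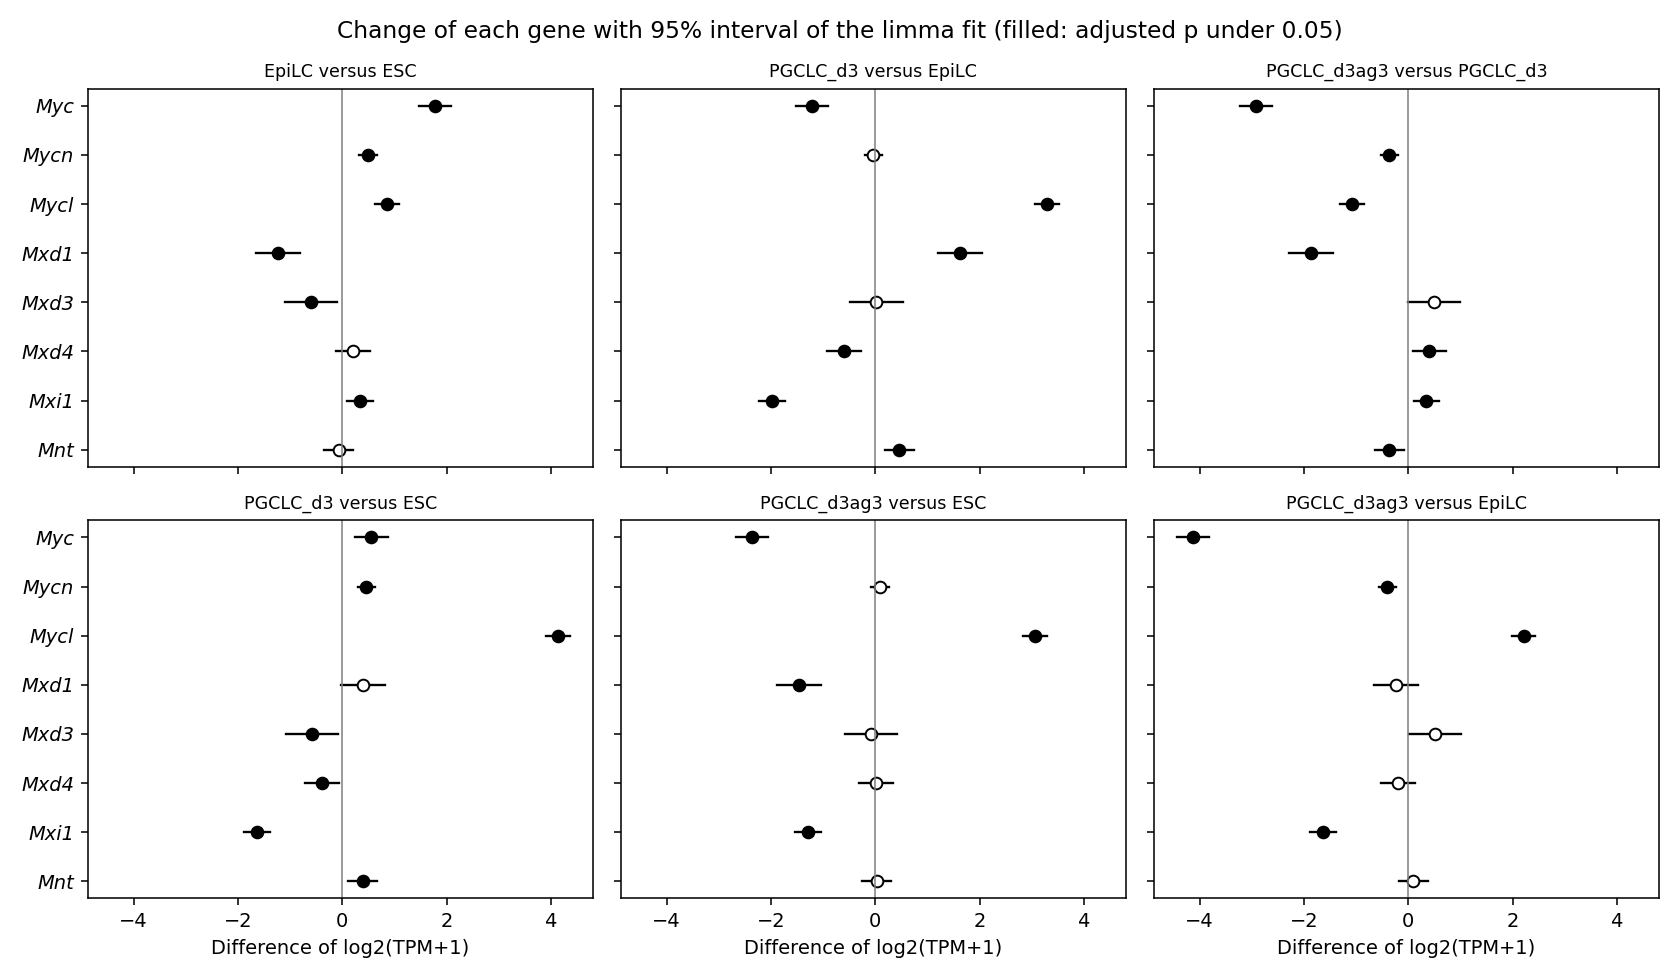
Change of each member on the log2(TPM+1) scale in the 6 comparisons, with bars for the 95% intervals of the limma fit and filled points for adjusted p under 0.05. Myc has the largest fall, -4.13 from EpiLC to PGCLC_d3ag3, and Mycl the largest rise, 4.14 from ESC to PGCLC_d3, while Mycn lies between -0.40 and 0.49.

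Max, the common dimer partner, was at 64.1 and 68.3 TPM in ESC, 58.2 and 45.9 TPM in EpiLC, 38.9 and 34.8 TPM in PGCLC_d3, and 34.2 and 41.7 TPM in PGCLC_d3ag3. The sorted groups overlapped, and all their libraries were below those of ESC and EpiLC. Max was below ESC in PGCLC_d3 by -0.83 (SE 0.125, limma adjusted p = 0.00016) and in PGCLC_d3ag3 by -0.79 (adjusted p = 0.000219). Its difference of -0.35 between EpiLC and ESC (adjusted p = 0.031) was lost without ESC replicate 1 (-0.39, adjusted p = 0.0724), ESC replicate 2 (-0.30, adjusted p = 0.147) or EpiLC replicate 2 (-0.18, adjusted p = 0.265). Its fall from EpiLC to PGCLC_d3 was -0.48 (adjusted p = 0.00591) and was lost without EpiLC replicate 1 (-0.31, adjusted p = 0.0658). Mga, a large MAX partner known from a Polycomb complex that silences germline genes, was at 31.1 and 31.7 TPM in PGCLC_d3 and at 12.6 and 10.4 TPM in PGCLC_d3ag3. It fell between them by 1.38 (SE 0.136, adjusted p = 1.33e-05), 2.73-fold, and was also below ESC, at 21.6 and 29.3 TPM, by -1.07 (adjusted p = 4.7e-05).

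Of 20 network partners and cofactors of MYC and MXD proteins, all tested, 7 were higher and 9 lower in EpiLC than in ESC (median change -0.08, against 0.04 for all tested genes). In PGCLC_d3 against EpiLC 10 were higher and 3 lower (median 0.27, against 0.21), after quantile normalization 7 and 5, and after median-of-ratios rescaling 7 and 7. In PGCLC_d3ag3 against PGCLC_d3 6 were higher and 8 lower (median -0.01, against -0.18), after quantile normalization 7 and 8, and after that rescaling 10 and 6. Mlxipl, a glucose-responsive factor that pairs with MLX, was at 0.391 and 0.796 TPM in PGCLC_d3 and 2.08 and 3.17 TPM in PGCLC_d3ag3, a rise of 1.18 (limma adjusted p = 0.000202), 4.42-fold in TPM. Its relative Mlxip was higher in PGCLC_d3 than in ESC by 1.604 (adjusted p = 1.02e-06), 3.75-fold. Several chromatin factors also changed. Wdr5, a histone methyltransferase subunit that binds MYC, was at 647 and 648 TPM in ESC, fell by 1.69 to EpiLC (adjusted p = 1.61e-09) and rose by 1.29 to PGCLC_d3 (adjusted p = 8.94e-09). Hdac2, a histone deacetylase, fell by 1.65 from ESC to EpiLC (adjusted p = 5.23e-09), from 948 and 927 TPM to 299 and 295 TPM. Sin3b, the scaffold through which MXD proteins recruit deacetylases, rose from EpiLC, at 137 and 131 TPM, to PGCLC_d3, at 489 and 458 TPM, by 1.81 (adjusted p = 4.16e-09). Ep400, a chromatin remodeller that works with MYC, fell by 1.01 from PGCLC_d3 to PGCLC_d3ag3 (adjusted p = 1.74e-05). Zbtb17, which encodes MIZ1, the factor through which MYC represses genes, was below ESC by -1.54 in PGCLC_d3 (adjusted p = 1.12e-07) and by -1.27 in PGCLC_d3ag3 (adjusted p = 4.36e-07).

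MYC protein is short-lived, and 11 genes for its turnover were tested. Of these, 4 were higher and 3 lower in EpiLC than in ESC (median change 0.04, as for all tested genes), 3 and 5 in PGCLC_d3 against EpiLC (median -0.09, against 0.21), and 3 and 6 in PGCLC_d3ag3 against PGCLC_d3 (median -0.30, against -0.18). After quantile normalization the count at the second step became 1 and 7 and that at the last step 2 and 3, and after median-of-ratios rescaling they became 2 and 7, and 4 and 4. Huwe1, another of the list, was not analysed here. Fbxw7, the ubiquitin ligase subunit that marks MYC and MYCN for degradation, was at 12.4 and 13.0 TPM in ESC and 6.94 and 7.07 TPM in EpiLC, a fall of -0.78 (limma adjusted p = 0.000208). Usp28, a deubiquitinase that counters it, was at 63.6 and 73.9 TPM in ESC and 129.7 and 142 TPM in EpiLC, a rise of 0.98 (adjusted p = 2.99e-06). Usp22, another deubiquitinase, rose by 0.74 from EpiLC to PGCLC_d3 (adjusted p = 3.91e-05) and fell by 0.67 to PGCLC_d3ag3 (adjusted p = 0.000101).

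Most genes listed as MYC targets from other cells were higher in EpiLC, the group of highest Myc, than in ESC. Of 28 such genes for the nucleolus and ribosome synthesis, 24 were higher and 2 lower (median change 0.40, against 0.04 for all tested genes), of 22 for growth and metabolism 15 and 4 (median 0.54), and of 15 for the cell cycle and translation 8 and 1 (median 0.30). Ddx21, an RNA helicase of the nucleolus, rose from 41.7 and 45.4 TPM to 103 and 107 TPM, by 1.25 (SE 0.0799, limma adjusted p = 5.01e-07). Wdr12, a ribosome assembly factor, rose by 0.81 (adjusted p = 6.72e-06). Shmt1, an enzyme of one-carbon metabolism, rose by 1.13 (adjusted p = 3.17e-08), and the lactate transporter Slc16a1 by 1.05 (adjusted p = 2.38e-07). Slc7a5, an amino acid transporter, went the other way, from 580 and 560 TPM to 261 and 290 TPM, a fall of -1.05 (adjusted p = 9.63e-07). These counts stayed within 1 gene of their value in either direction under quantile normalization and median-of-ratios rescaling. The sum of the 3 MYC genes, mostly Mycn, was highest not in EpiLC (228 TPM) but in PGCLC_d3 (242 TPM). Whether the level of any MYC gene set those of the targets was not tested.

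From EpiLC to PGCLC_d3, 16 of the 22 growth and metabolism genes were lower and 3 higher (median change -0.41, against 0.21 for all tested genes). At this step Myc fell 2.37-fold and Mycl rose 11.5-fold, and the sum of the 3 MYC genes went from 228 to 242 TPM. The nucleolar genes were lower in 14 cases and higher in 7 (median -0.16), after quantile normalization lower in 14 and higher in 5, and after median-of-ratios rescaling lower in 20 and higher in 0. Ddx21 fell to 29.0 and 31.6 TPM, by 1.76 (SE 0.0799, limma adjusted p = 3.91e-08). Nme1, a nucleotide kinase, fell from 309 and 304 TPM to 86.1 and 82.4 TPM, by 1.85 (adjusted p = 1.95e-09), and Eno1, a glycolytic enzyme, by 1.65 (adjusted p = 3.6e-09). The genes for the cell cycle and translation were split, 8 higher and 6 lower (median 0.14), or 9 and 5 after quantile normalization and 4 and 7 after rescaling. Ccnd2, a D-type cyclin, was at 3.20 and 6.11 TPM in EpiLC, 319 and 347 TPM in PGCLC_d3 and 2.69 and 3.88 TPM in PGCLC_d3ag3. Its rise was 5.93 (adjusted p = 2.07e-08) and its fall -6.30 (adjusted p = 4.84e-08). At the first of these steps this was against the direction of Myc and with that of Mycl.

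From PGCLC_d3 to PGCLC_d3ag3, where Myc fell 10.1-fold, Mycl 2.15-fold and Mycn 1.29-fold, the counts of targets depended on the scaling. Of the nucleolar genes 13 were lower and 5 higher (median change -0.12, against -0.18 for all tested genes), with 15 and 4 after quantile normalization (median -0.15) but 11 and 12 after median-of-ratios rescaling (median 0.10). Of the growth and metabolism genes 10 were lower and 4 higher (median -0.15), with 13 and 4 after quantile normalization (median -0.20) but 8 and 9 after rescaling (median 0.06). Of those for the cell cycle and translation 10 were lower and 4 higher (median -0.32), with 8 and 3 after quantile normalization (median -0.27) and 7 and 5 after rescaling (median -0.11). Utp20 and Mybbp1a, which act in ribosome synthesis, fell by 1.38 (SE 0.117, limma adjusted p = 4.9e-06) and by 1.11 (adjusted p = 3.32e-07). The one-carbon enzyme Mthfd2 fell by 1.39 (adjusted p = 1.14e-06) and Slc7a5 by 1.37 (adjusted p = 2.95e-07), whereas Eno1 rose by 0.75 (adjusted p = 1.44e-06) and Nop16 by 0.50 (adjusted p = 4.97e-05). Between EpiLC and PGCLC_d3ag3, the groups of highest and lowest Myc, 20 nucleolar genes were lower and 4 higher (median -0.40, against 0.05 for all tested genes). Of the growth and metabolism genes 19 were lower and 2 higher (median -0.94). Both counts were the same after median-of-ratios rescaling. PGCLC_d3ag3 had lower Myc than ESC but a MYC sum of 153 TPM, against 135 TPM. Between these groups growth and metabolism genes were lower in 12 cases and higher in 5, and nucleolar genes in 12 and 11. Those for the cell cycle and translation were lower in 6 and higher in 9. Of all tested genes 34.8% were lower and 42.5% higher.

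Genes listed here as repressed by MYC, Id2 among them, moved both ways. That MYC represses each of them in these cells was not tested. Of 11 tested, 7 were higher and 3 lower in EpiLC than in ESC (median change 0.74, against 0.04 for all tested genes). The counts were 5 and 4 in PGCLC_d3 against EpiLC (median 0.20, against 0.21), and 4 and 4 in PGCLC_d3ag3 against PGCLC_d3 (median 0.01, against -0.18). After quantile normalization they were 6 and 3, 4 and 5 (median -0.05), and 4 and 4 in the same order. After median-of-ratios rescaling they were 7 and 3, 4 and 5 (median 0.03), and 5 and 4. Ndrg1, a differentiation gene, was at 14.1 and 15.6 TPM in ESC and at 1.55 and 1.33 TPM in EpiLC, a fall of -2.70 (SE 0.125, limma adjusted p = 4.79e-08). Gadd45a, a stress response gene, rose at the same step by 1.93 (adjusted p = 1.15e-08). Id2, a BMP-responsive inhibitor of differentiation, rose by 3.00 from EpiLC to PGCLC_d3 (adjusted p = 1.01e-09) and fell by 3.05 to PGCLC_d3ag3 (adjusted p = 3.35e-09).

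**Figure D4:**
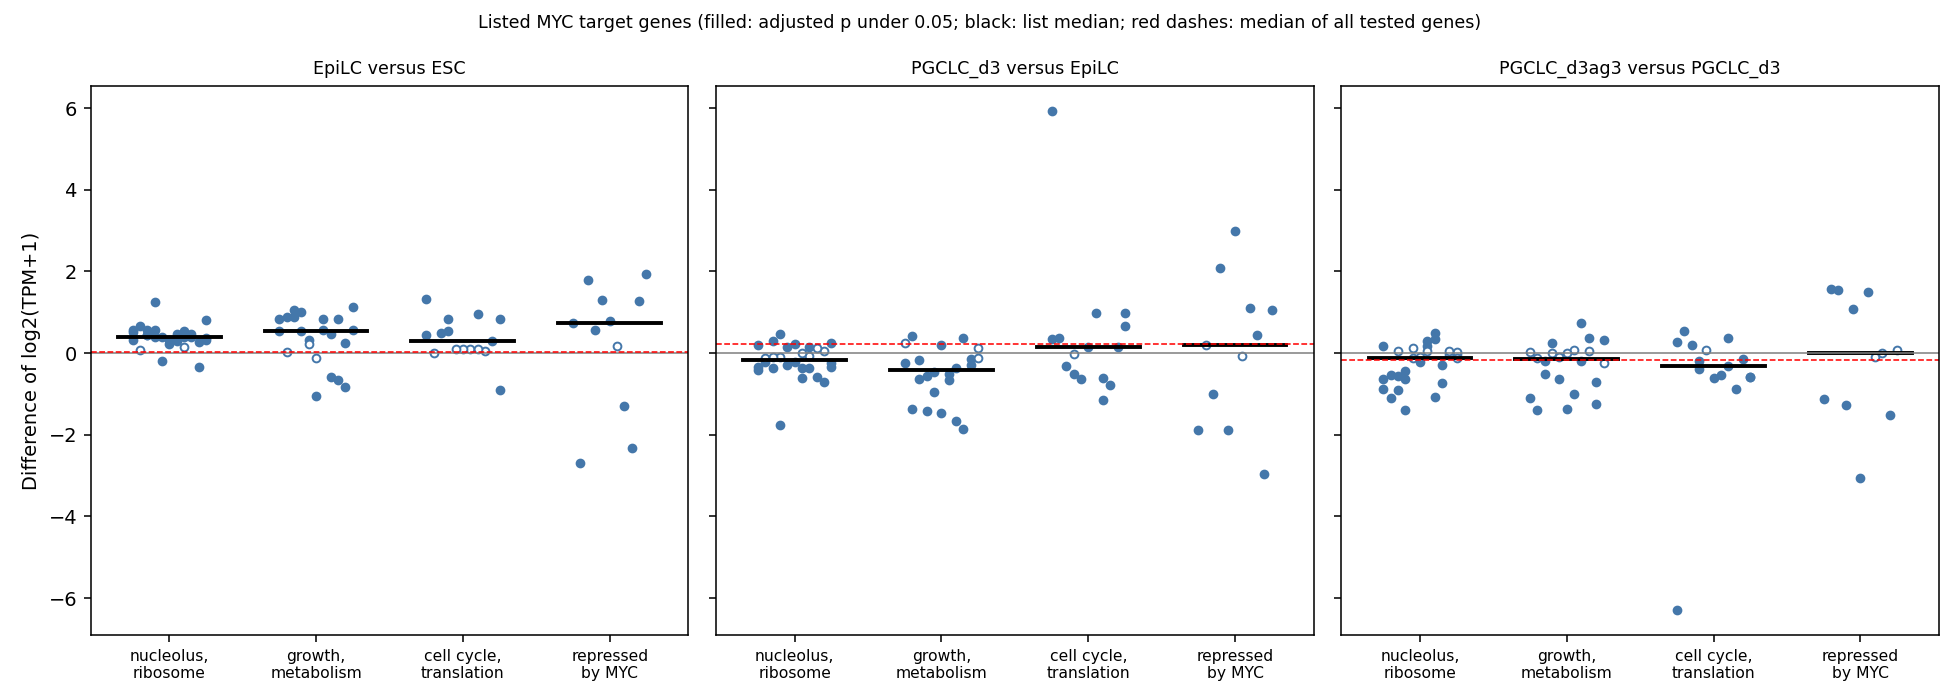
Change on the log2(TPM+1) scale of each tested gene of 3 lists of MYC targets and of the genes listed as repressed by MYC. It is shown for the 3 successive steps, with 1 point per gene, filled where the adjusted p was under 0.05. A black bar marks the median of the list and a red dashed line the median of all tested genes. Targets for growth and metabolism have a median of 0.54 from ESC to EpiLC, -0.41 from EpiLC to PGCLC_d3 and -0.15 from PGCLC_d3 to PGCLC_d3ag3.

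The E-box CACGTG, which reads the same on both strands, was searched in RefSeq promoter windows of 300 bases (250 before and 50 after the start, build GRCr8). It was present in 2148 of 33469 windows, or 6.42%. That share is per window and not limited to tested genes. The list counts that follow are per gene with a match in any of its windows, so the shares are not like for like. Myc and Mycn had no window and were not searched. Of the 6 members with a window, 2 held the E-box, Mnt and Mxd4. Of the 18 partners with a window, 3 held it, Max and Mlx among them, and of the target lists 9 of 25 nucleolar genes (36%), 5 of 21 growth and metabolism genes (23.8%) and 5 of 11 genes for the cell cycle and translation (45.5%). It was in 1 of 10 turnover genes and 1 of 8 genes listed as repressed. A match is a description of these letters and not a bound site. The following stretches show it in the members that hold it, in Max, and in 4 targets whose values are given above (1 of 2 matches in Mybbp1a), with the E-box in capitals and 5′ to 3′ on the strand of the gene.
Mnt: ccccacccaagcCACGTGtgcgcgcgcgat
Mxd4: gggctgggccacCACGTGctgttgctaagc
Max: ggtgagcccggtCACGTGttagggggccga
Mybbp1a: gtctttcgagccCACGTGtttggttcagca
Utp20: cagcactagctaCACGTGagaaaaagcaga
Slc7a5: catcatacgctcCACGTGcttcaacagacc
Slc16a1: gcagcgcctagtCACGTGgcgggaaggggg
They lie at chr10:60197824-60197853 (+, Mnt), chr14:80786572-80786601 (+, Mxd4), chr6:101395306-101395335 (-, Max), chr10:57555445-57555474 (+, Mybbp1a), chr7:25102959-25102988 (-, Utp20), chr19:66872574-66872603 (-, Slc7a5) and chr2:194812432-194812461 (+, Slc16a1). The centre of the E-box lay 120 bases before the start in Mnt, 194 in Mxd4, 30 in Max, 124 in Utp20, 176 in Slc7a5 and 213 in Slc16a1. In Mybbp1a the E-box spanned the start, with its centre 2 bases from it. Genes with the E-box did not all move alike at a step. Of the 4 targets shown, Mybbp1a (by 0.67), Utp20 (by 0.56) and Slc16a1 rose from ESC to EpiLC, and Slc7a5 fell. All 4 were lower in PGCLC_d3ag3 than in PGCLC_d3. Ddx18 and Eif4e, which also hold the E-box, rose there by 0.35 (limma adjusted p = 0.00121) and by 0.53 (adjusted p = 1.27e-05). Directions were not counted over all genes with the E-box.

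For the 4 members whose group means spanned at least 1 on the log2 scale, the genes most like them were ranked by Pearson r of log2(TPM+1) over the 8 libraries, among 7775 genes of at least that span. With 4 pairs of replicates this is a description, and many genes follow each pattern. Closest to Myc were Med12 (r = 0.998), a subunit of the Mediator kinase module, Ptpn3 (r = 0.998), a tyrosine phosphatase, and Nisch (r = 0.996), out of 182 genes over 0.95. Med12 had a mean of 12.5 ± 0.139 TPM in EpiLC and 1.27 ± 0.412 TPM in PGCLC_d3ag3 (SD, n = 2). Close to Mycl were Sertad4 (r = 0.999) and Slc44a2 (r = 0.999), a choline transporter-like protein, out of 550. Sertad4 went from 1.80 ± 0.233 TPM in EpiLC to 62.9 ± 1.57 TPM in PGCLC_d3 and 22.5 ± 3.62 TPM in PGCLC_d3ag3 (SD, n = 2). Closest to Mxi1 were Gdi2 (r = 0.997), Chd3 (r = 0.995), a chromatin remodeller, and Cers4 (r = 0.995), a ceramide synthase, out of 164. Mxd1 had fewer such genes, 26, led by Il17rc (r = 0.980), RT1-CE2 (r = 0.977) and Rps6ka4 (r = 0.972). RT1-CE2 belongs to a multigene family, so that its count is uncertain. The means of Mycn, Mxd3, Mxd4 and Mnt spanned 0.46 to 0.60, and no genes are named for them.

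**Figure D5:**
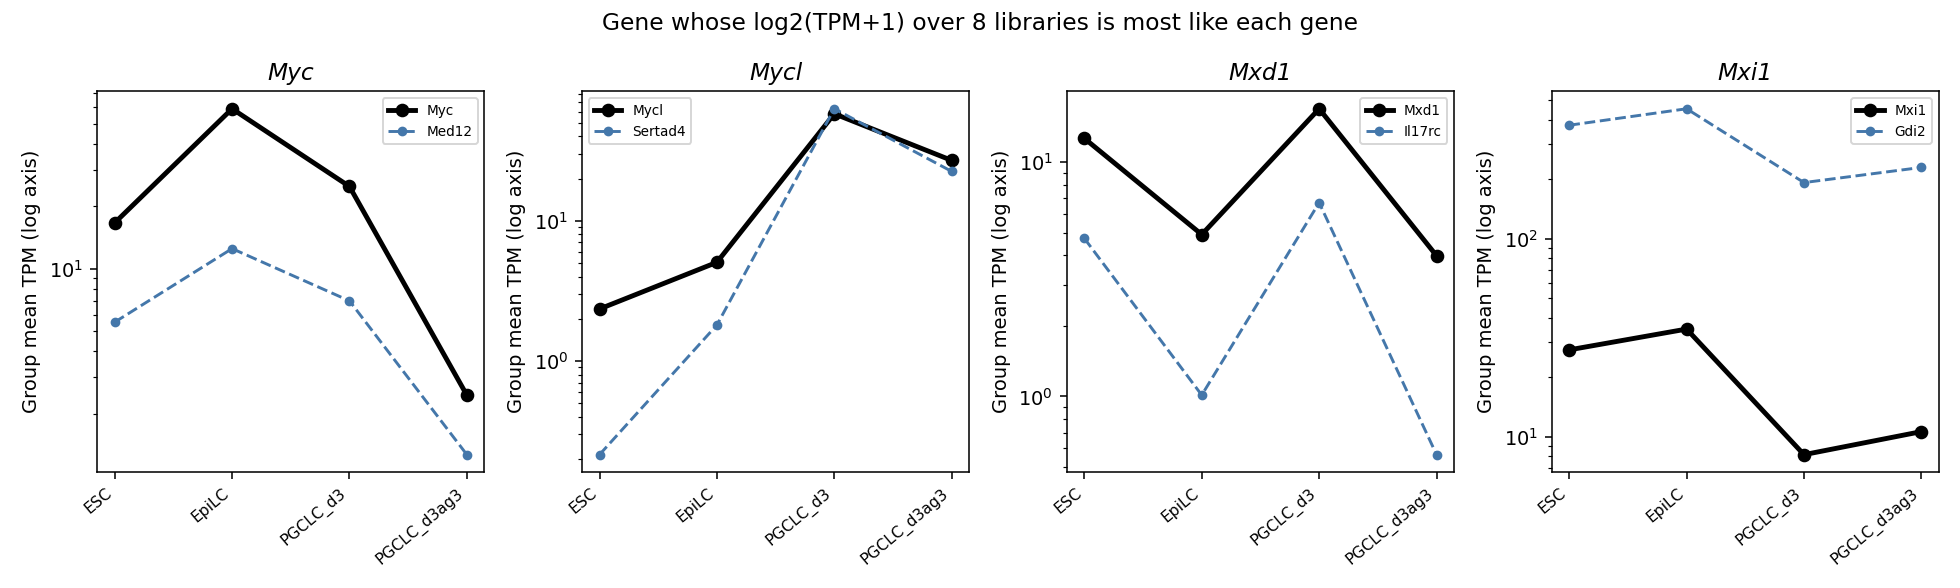
Group mean in TPM (log axis) of Myc, Mycl, Mxd1 and Mxi1 (black) over the 4 groups, each with the gene of highest Pearson r over the 8 libraries (dashed). The dashed lines turn at the same groups as the member, as Med12 does at 12.5 TPM in EpiLC where Myc is at 58.9 TPM.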

How the data were processed

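The 8 members are the rows of the expression table with the symbols named above. Members and gene lists were chosen with earlier results of these data known. Per the labels' protocols, PicoPure was used for RNA and the kits SMART-Seq v4 and KAPA Hyper Prep for libraries. The submitters' processing notes list bcl2fastq 2.20, cutadapt 1.1.6, HISAT2 2.1.0, featureCounts of Subread 1.6.5 and the build rn7. Gene lengths and the strand setting are not given in the sources used here, so reads of overlapping antisense genes may be included. How reads of the mouse feeder cells map to the rat genes was not tested. The authors deposited log2(TPM+1) per gene and library. In the table, 11066 rows without a symbol hold no values and were left out.

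The 13571 genes that reached a TPM of 1 in 2 or more of the 8 libraries were tested 2-sided in limma 3.58.1 with R 4.3.3 (lmFit, eBayes with trend), in 1 fit of 4 groups (4 residual degrees of freedom), with Benjamini-Hochberg adjustment per comparison. The fit was tested on simulated data. All 6 pairs of groups were compared. The 19 alternatives were pseudocounts of 0.1 and 5, no filter, a filter at 5 TPM, quantile normalization, median-of-ratios rescaling, leaving out each of the 8 libraries, a fit of the groups compared, a replicate block, eBayes without trend, robust eBayes, and adjustment over 6 comparisons together. Where 1 library of a group is left out, the other is assumed to vary like the other groups. Besides the members, Max and Mga, the text names up to 2 rises and 2 falls per gene list and comparison, list markers, and the 3 genes most like a member, of which 1 is not reported here. Depth is known only relative to the first ESC library, so no counting intervals are given.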

Additional observations from a re-analysis of the deposited data

How the results depend on the processing

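Among the members' values under alternatives that keep all libraries, 483 had the same direction and call, 18 lost a call, 8 gained one and 7 changed sign. Mxd3 and Mxd4 do not pass the filter at 5 TPM and have no value under it. The sign changed for Mxd3 in PGCLC_d3 against EpiLC (-0.0019 on log2(TPM+5), -0.26 after quantile normalization and -0.17 after median-of-ratios rescaling). In PGCLC_d3ag3 against ESC it changed for Mxd4 (-0.16 and -0.048 after the same normalizations) and, after median-of-ratios rescaling, for Mycn (-0.0074) and Mnt (-0.058). Leaving out 1 library also changed signs. The ranges were -0.19 to 0.050 for Mnt in EpiLC against ESC, -0.35 to 0.40 for Mxd3 in PGCLC_d3 against EpiLC, -0.11 to 0.17 for Max in PGCLC_d3ag3 against PGCLC_d3, and, in PGCLC_d3ag3 against ESC, -0.021 to 0.20 for Mycn, -0.25 to 0.084 for Mxd3, -0.069 to 0.089 for Mxd4 and -0.0085 to 0.064 for Mnt. In PGCLC_d3ag3 against EpiLC they were -0.49 to 0.0015 for Mxd1 and -0.022 to 0.22 for Mnt. None of these differences was called in the report's fit. The number of members changed between PGCLC_d3 and ESC was 4 after median-of-ratios rescaling (1 higher and 3 lower); the cause was not tested. With 1 library left out, that number was 4 to 6 (EpiLC against ESC), 5 to 6 (PGCLC_d3 against EpiLC), 4 to 8 (PGCLC_d3ag3 against PGCLC_d3), 4 to 7 (PGCLC_d3 against ESC), and 4 to 5 (PGCLC_d3ag3 against ESC and against EpiLC). With a replicate block, the counts in the same order were 6, 6, 8, 7, 4 and 5. Mxd3 then passed in PGCLC_d3ag3 against PGCLC_d3 (0.49, adjusted p = 0.0348) and against EpiLC (0.51, adjusted p = 0.0264). Deviations of equal-numbered libraries correlated by -0.0374 to 0.0662 across genes, so no strong shared deviation was seen. With 2 libraries per group, this cannot exclude that equal numbers mark a pair. For the list genes named, with Max and Mga in every comparison, 2806 values under alternatives had the same direction and call status, 37 lost a call, 2 gained one and 2 changed sign.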
